A study of Mus musculus with 11 samples.

Results

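Dusp4, Dusp5, Dusp6, Spred1, Spred2, Spry1 and Spry2 encode inhibitors that act on the RAS-ERK pathway. They were chosen by function: every probe whose RefSeq accession belongs to 1 of these genes was taken. This gave 9 probes for 7 genes, out of 55681 probes on the array. All 7 genes had a probe that passed the filter on dim signals (well above background on 3 or more arrays), Dusp4 through its 0 h arrays alone, and they were tested among 25109 genes or unnamed features.

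The cells were MLL-AF9-transformed L-GMP cells, leukaemic mouse granulocyte-macrophage progenitors driven by MLL-AF9, the fusion product of a translocation in human acute leukaemia. The 4 cell lines were derived from C57BL/6 mice and were kept in RPMI with 20% serum and 10 ng/ml interleukin-3 (IL-3). Every group, the 0 h group included, carried floxed alleles of Jmjd2a, Jmjd2b and Jmjd2c (Kdm4a, Kdm4b and Kdm4c), genes for histone demethylases, and CreERT2 in the Rosa26 locus, a Cre recombinase that 4-hydroxytamoxifen switches on. RNA was measured without the drug (0 h, 4 arrays) and after 48 h (4 arrays) and 96 h (3 arrays) in 500 nM 4-hydroxytamoxifen. The labels do not say which line a sample came from, so the p-values measure the spread between these samples. Cells given the drug without floxed alleles were not analysed here, so gene loss, the drug with active Cre, and time in culture cannot be told apart. All 96 h arrays lay on a slide and scan of their own, so the 96 h group and that slide cannot be told apart either.

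RAS proteins pass signals from growth factor and cytokine receptors to the kinases RAF, MEK and ERK, and ERK in turn switches on genes for growth. IL-3, on which myeloid progenitors depend in culture, is one of the cytokines that use this route, together with JAK2 and STAT5. ERK also induces its own inhibitors, a negative feedback, so that their transcripts are widely read as a gauge of ERK output. The phosphatases DUSP4, DUSP5 and DUSP6 strip the activating phosphates from ERK, DUSP4 and DUSP5 in the nucleus and DUSP6 in the cytoplasm. Sprouty proteins (SPRY1 and SPRY2) interfere with signalling between receptor tyrosine kinases and RAF. Spred proteins (SPRED1 and SPRED2) bring neurofibromin, a GTPase-activating protein that switches RAS off, to the membrane.

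The promoters of 4 members are printed because they belong to the transcripts the results turn on: Spred1 and Spry1 changed at 48 h, Spred2 changed at 96 h, and Dusp5 held the only serum response factor motif. RefSeq (GRCm38.p6) promoters were found for 6 of the 7 members; Dusp4 had no entry. Each line runs 5′ to 3′ over the 250 bases before the annotated start, all on the plus strand. Capitals mark a match to a CArG box, the site of serum response factor, in Dusp5 (chr19:53528895-53529144), and to the cyclic AMP response element (CRE) core on the reverse strand in Spred2 (chr11:19924192-19924441). Spred1 (chr2:117120821-117121070) and Spry1 (chr3:37639697-37639946) held none of the 4 motifs searched.
Dusp5: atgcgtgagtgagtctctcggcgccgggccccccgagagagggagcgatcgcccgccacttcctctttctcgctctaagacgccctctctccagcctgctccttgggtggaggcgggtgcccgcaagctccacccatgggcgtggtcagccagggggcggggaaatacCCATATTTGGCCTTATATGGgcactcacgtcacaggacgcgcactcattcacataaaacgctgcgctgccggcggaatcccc
Spred2: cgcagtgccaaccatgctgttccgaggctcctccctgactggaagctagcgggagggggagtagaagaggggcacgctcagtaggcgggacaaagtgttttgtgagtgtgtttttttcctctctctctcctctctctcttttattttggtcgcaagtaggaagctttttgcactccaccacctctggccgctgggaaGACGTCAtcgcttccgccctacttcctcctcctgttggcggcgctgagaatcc
Spred1: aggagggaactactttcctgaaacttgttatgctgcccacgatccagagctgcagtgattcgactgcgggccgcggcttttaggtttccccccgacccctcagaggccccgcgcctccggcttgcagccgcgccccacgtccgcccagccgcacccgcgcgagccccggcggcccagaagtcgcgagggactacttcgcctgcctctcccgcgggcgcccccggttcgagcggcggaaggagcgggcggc
Spry1: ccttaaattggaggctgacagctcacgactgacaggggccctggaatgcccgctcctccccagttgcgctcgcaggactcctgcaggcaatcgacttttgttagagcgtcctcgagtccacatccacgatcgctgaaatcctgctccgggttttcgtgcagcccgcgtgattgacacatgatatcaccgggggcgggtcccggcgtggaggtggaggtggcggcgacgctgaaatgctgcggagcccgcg

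In Dusp5 a pair of CArG boxes stood end to end, at -82 to -73 and at -72 to -63 from the start. In Spred2 the CRE core stood at -53 to -47. The search covered both strands of 300 bases, the 250 printed and the 50 after the start. The CArG box was present in 1.63% of 32851 promoters, and the CRE core TGACGTC in 3.21%. The ETS core CCGGAAG was present in 8.86% and the AP-1 motif TGANTCA in 7.81% of them, and neither was found in the 6 members. No 2 of these matches overlapped. A match describes letters in this window and nothing about binding in these cells.

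Values are scaled log2 signals, that is the log2 of each deposited processed signal less the 75th percentile of its array, so that 0 lies at that percentile. They compare arrays for 1 probe and do not compare probes with each other. The floxed genes were checked first: Kdm4c fell by 4.95 at 48 h and by 4.60 at 96 h against 0 h (log2, limma adjusted p = 5.41e-07 and 2.46e-06), Kdm4b fell by 3.30 and 3.24, and Kdm4a fell by 1.59 and 1.20. Between 27571 and 42084 probes per array were well above background, the largest number in 96 h replicate 1. That array had 42084 against 29763 and 35721 in the other two 96 h arrays, and calls of the members at 96 h are also given without it below. The myeloid progenitor markers were detected throughout, with all 10 of 10 tested, and Mpo, an enzyme of primary granules, was 4.33 higher at 48 h and 5.18 higher at 96 h than at 0 h. It was the 1 progenitor marker called each time, and 3 were with the file-number block (the number in the scanner file name, taken here as the pairing of the samples). Of the mature neutrophil markers, 1 of 9 rose at 48 h (Camp), where 10.5% of all genes rose. At 96 h against 0 h 4 of 9 rose (Ltf, Camp, Retnlg and S100a8), where 6.17% of all genes rose. With that block 3 and 7 of 9 rose, where 21.4% and 14.1% of all genes were called in either direction. The summed scaled signal of these neutrophil markers spanned 79.1 to 637 at 0 h, 171 to 612 at 48 h and 795 to 1501 at 96 h, with none of the 9 at background on every array. The 48 h span lay within that of 0 h. Called markers of other cell types at 48 h against 0 h were Fcgr1 (monocytes, -3.71, 1 of 7), Mcpt8 (basophils, 1.02, 1 of 4), Gp9 (megakaryocytes, 1.07, 1 of 5) and Epor (erythroid, 0.66, 1 of 4). At 96 h against 0 h they were Gata2 (mast cells, -0.80), Gp9 (1.43), Epor (0.87) and Cd3e (T cells, -0.53, 1 of 7), and at 96 h against 48 h Cd3e (-0.90). The monocyte median at 48 h was 0.19, and with that block 2 were higher and 1 lower. Mast cell and basophil markers then had 1 higher and 1 lower at 48 h, and lymphoid markers 1 higher and 0 lower at 96 h against 0 h. The part of these markers in the results below was not tested, and in these bulk samples fewer cells of a type and less RNA per cell cannot be told apart.

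Apart from Dusp4, every inhibitor had a lower mean at 48 h than at 0 h, though Spred2 (-0.20) and Spry2 (-0.10) by little, and Spred1 and Spry1 passed the test. Dusp4 was lower too, but it met the filter through 0 h arrays alone. How many of all genes had a lower mean was not counted. The Spry1 call was lost with 1 array left out for 5 of the 11 arrays. At 96 h Spred2 was called higher than at 0 h, a call lost with scaling on the median (0.23, adjusted p = 0.471) and on leaving out each 96 h replicate in turn. Spred1 stood at -0.01 against 0 h at 96 h (-0.40 with scaling on the median, adjusted p = 0.171). Dusp4 also passed the test at 96 h, as lower than at 0 h, but it entered the test through 0 h arrays alone and the call was lost without the filter (adjusted p = 0.0645), so it is given as a description. A call means an adjusted p under 0.05 in limma, with Benjamini-Hochberg adjustment over all genes. At 48 h against 0 h, 0 members rose and 2 of 7 fell (28.6% of the members called), where 18.5% of all genes were called, 10.5% higher and 8.0% lower. The members' median log2 difference was -0.70 (-0.62 with the 48 h signals of Dusp4 raised to the floor given below), beside 0.12 for all genes. For 3 members, Dusp5, Spred1 and Spry1, every 48 h array lay below every 0 h array, as it did for 9.82% of all genes. Comparing 96 h with 0 h, 1 member was called higher (Spred2) and 1 lower (Dusp4), where 9.55% of all genes were called, 6.17% higher and 3.38% lower. Every 96 h array lay below every 0 h array for 1 member (Dusp4, as a description only, beside 8.68% of all genes) and above it for 1 member (Spred2, beside 16.4% of all genes). The members' median was -0.21, beside 0.11. Comparing 96 h with 48 h, 2 members rose (Spred1 and Spred2) and 0 fell, where 11.1% of all genes were called, 5.15% higher and 5.93% lower, and the members' median was 0.40, beside 0.03. Any pair of these comparisons shares the arrays of a group (0 h, 48 h or 96 h), so they are not independent, and both comparisons with 96 h set its slide against the other.

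**Figure D1:**
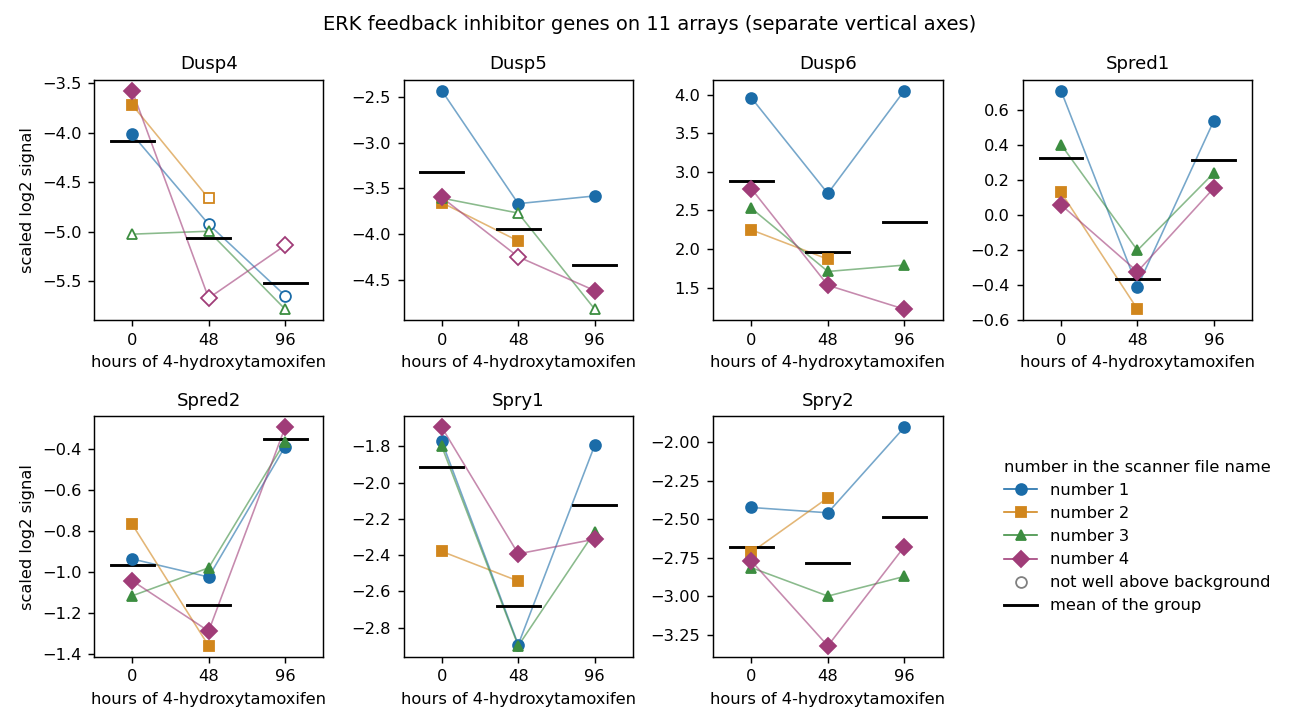
Scaled log2 signal of each inhibitor gene on all 11 arrays (vertical, a separate axis per gene) against hours of 4-hydroxytamoxifen (horizontal), joined by the number in the scanner file name, with open symbols where the spot was not well above background and bars at the group means. Spred1 and Spry1 dip at 48 h, Spred2 rises at 96 h, and number 1 is the highest Dusp6 sample at every time.

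Dusp4, which encodes a nuclear phosphatase of ERK and of the stress kinases, gave -4.02, -3.72, -5.03 and -3.58 at 0 h, -4.92, -4.66, -5.00 and -5.67 at 48 h, and -5.65, -5.78 and -5.14 at 96 h. The probe was well above background on 3 of the 4 arrays at 0 h and on none of the 4 and none of the 3 later ones. The later values are therefore uncertain, and the gene met the filter of 3 arrays only through the group where it is high, so its p-values are given as a description and support no change. At 96 h every array lay below every 0 h array, and Dusp4 was 2.63-fold lower than at 0 h with the 96 h signals raised to a floor. The measured means were -5.52 ± 0.34 (SD, n = 3) and -4.08 ± 0.65 (SD, n = 4), with a limma adjusted p of 0.0342. For each array the floor is the weakest signal of any probe that cleared background there, used where the Dusp4 signal was lower. It is not the detection limit of this spot: on 96 h replicate 2 it was -5.65, while Dusp5 at -4.82 did not clear background. These folds are therefore no lower bounds. At 48 h the groups overlapped through 0 h replicate 3, and Dusp4 was 1.52-fold lower than at 0 h with the 48 h signals raised to the same kind of floor. The measured means were -5.06 ± 0.43 and -4.08 ± 0.65 (SD, n = 4 each), with a limma adjusted p of 0.0617 and no call. It passed the test at 48 h with scaling on the median (adjusted p = 0.0429), quantile normalization (0.0437) or slide row as a covariate (0.0402). The same held without 0 h replicate 3 (adjusted p = 0.0191), and these too are descriptions only. No fold is given between 96 h and 48 h, where neither group was well above background. The 96 h call was lost with normexp background correction (-0.18, adjusted p = 0.0735), in the authors' deposited table (-0.18, adjusted p = 0.0743), without the filter on dim probes (adjusted p = 0.0645), in a fit of only the groups compared (0.0753), with a block on the title number (0.0790), and without 0 h replicate 1, 2 or 4 or any 96 h replicate (-1.63 to -1.27, adjusted p = 0.0528 to 0.1004, with -1.38 and 0.0935 without 96 h replicate 1).

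Dusp5, which encodes an ERK-selective nuclear phosphatase, gave -2.43, -3.66, -3.61 and -3.60 at 0 h, -3.67, -4.07, -3.77 and -4.25 at 48 h, and -3.58, -4.82 and -4.61 at 96 h. It cleared background on 4, 2 and 2 of the 4, 4 and 3 arrays. At 0 h, replicate 1 stood above 3 near-identical values. Every 48 h array lay below every 0 h array, by a narrow margin, and 96 h replicate 1 lay within the 0 h range. Neither comparison passed the test: -0.62 at 48 h against 0 h (SE 0.33, adjusted p = 0.216) and -1.01 at 96 h against 0 h (SE 0.36, adjusted p = 0.0976). Samples that shared a number in the scanner file name tended to deviate together. Within such pairs Dusp5 was lower at 48 h in 4 of 4 (-1.23 to -0.16) and lower at 96 h than at 0 h in 3 of 3 (-1.21 to -1.02). With that number as a block, Dusp5 fell at 96 h against 0 h by 1.09 (SE 0.21, adjusted p = 0.0237), and 3 members in place of 2 were then called, beside 14.1% of all genes. Both counts include Dusp4, which entered the test through 0 h arrays alone and is given as a description only. The block called 2 members at 48 h against 0 h (21.4% of all genes) and 2 at 96 h against 48 h (12.1%), as the fit without it did. Dusp5 was also called at 96 h with scaling on the median (-1.40, adjusted p = 0.0138), with quantile normalization (-1.51, adjusted p = 0.0128) and with the title number as block (adjusted p = 0.0336), and at 48 h with quantile normalization (-0.81, adjusted p = 0.0421). With normexp the 96 h difference was -0.25 (adjusted p = 0.0848), and without 96 h replicate 1 it was -1.39 (adjusted p = 0.0553).

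Dusp6, which encodes the cytoplasmic ERK phosphatase, was well above background on all 11 arrays. It gave 3.96, 2.25, 2.53 and 2.78 at 0 h, 2.72, 1.87, 1.71 and 1.53 at 48 h, and 4.05, 1.79 and 1.22 at 96 h. Replicate 1 was the highest sample at each time, and the groups overlapped. Within pairs of the same number, Dusp6 was lower at 48 h than at 0 h in 4 of 4 pairs (-1.25 to -0.38), while at 96 h against 0 h number 1 was at 0.09 and the other 2 pairs were at -0.74 and -1.56. The test called none of the 3 comparisons: -0.92 at 48 h against 0 h (95% interval -2.24 to 0.39, adjusted p = 0.293), -0.52 at 96 h against 0 h (-1.94 to 0.90, adjusted p = 0.620) and 0.40 at 96 h against 48 h (-1.02 to 1.82, adjusted p = 0.728). With the file-number block the SE at 48 h was 0.30 and the adjusted p 0.0651, and the 96 h differences were -0.64 against 0 h (SE 0.33, adjusted p = 0.220) and 0.28 against 48 h (SE 0.33, adjusted p = 0.608). The 96 h differences moved with single arrays. Without 96 h replicate 1 the difference was -1.37 against 0 h (adjusted p = 0.129) and -0.45 against 48 h (adjusted p = 0.626), where the sign turned. Without 96 h replicate 3 it was 0.04 against 0 h (adjusted p = 0.977), where the sign turned as well. Without 0 h replicate 1 it was -0.16 against 0 h (adjusted p = 0.890).

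**Figure D2:**
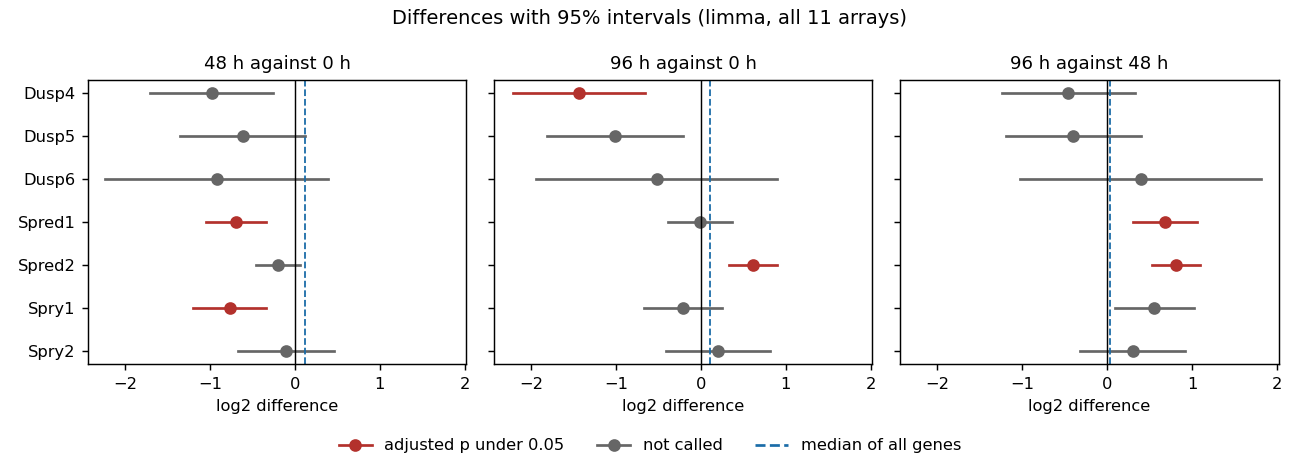
Log2 difference (horizontal) of the 7 inhibitor genes in 3 comparisons, with points for the limma estimate from 11 arrays, lines for its 95% interval, red for an adjusted p under 0.05 and a dashed line at the median of all genes. At 48 h against 0 h all 7 points lie left of 0 (Dusp4 as a description only), and at 96 h against 48 h Spred1 and Spred2 are called on the right.

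Spred1, whose human gene is mutated in Legius syndrome, had the most probes. Its brightest probe, which stood for the gene, gave 0.71, 0.13, 0.40 and 0.06 at 0 h, -0.41, -0.54, -0.20 and -0.32 at 48 h, and 0.54, 0.24 and 0.15 at 96 h. The 48 h arrays lay below all others, and the 0 h and 96 h arrays overlapped. Spred1 fell to 61.7% of its 0 h level at 48 h (-0.70, SE 0.16, adjusted p = 0.0162), and it was lower in 4 of 4 pairs. At 96 h it was higher than at 48 h by 0.68 (SE 0.17, adjusted p = 0.0317), and against 0 h the difference was -0.01 (95% interval -0.39 to 0.36, adjusted p = 0.967). The order of levels was 0 h, 96 h, 48 h, with no difference beyond the spread between 0 h and 96 h. With scaling on the median the 96 h level stood further below 0 h, at -0.40 (adjusted p = 0.171). The call at 48 h was lost only when the mean of the 3 probes stood for the gene (-0.16, adjusted p = 0.288), among 13 alternatives and 11 left-out arrays. The call at 96 h against 48 h was lost with scaling on the median (0.52, adjusted p = 0.142), without the dim filter (adjusted p = 0.0683), with the mean of probes (0.36, adjusted p = 0.0706), with the title-number block (adjusted p = 0.0591), and without 48 h replicate 1, 2 or 4 or any 96 h replicate (0.57 to 0.76, adjusted p = 0.0552 to 0.118, with 0.57 and 0.118 without 96 h replicate 1).

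The 3 Spred1 probes did not move alike. A second bright probe for the same RefSeq transcript gave 0.38, 0.09, 0.22 and 0.10 at 0 h, -0.28, -0.47, -0.14 and -0.36 at 48 h, and 0.33, -0.04 and -0.12 at 96 h. It fell at 48 h against 0 h by 0.51 when each probe was tested on its own (adjusted p = 0.0256, over 34302 probes of which 16.4% were called), and at 96 h against 48 h it was at 0.37 (adjusted p = 0.120). The third probe, for another RefSeq transcript of Spred1, was dim. It gave -5.43, -4.70, -5.63 and -4.59 at 0 h, -4.04, -3.96, -4.64 and -4.84 at 48 h, and -4.31, -4.40 and -4.33 at 96 h, and it was well above background on 2 arrays of each group. Its differences pointed the other way, 0.72 at 48 h (adjusted p = 0.0955) and 0.74 at 96 h (adjusted p = 0.135) against 0 h, and neither was called. With normexp they were 0.07 and -0.0004.

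**Figure D3:**
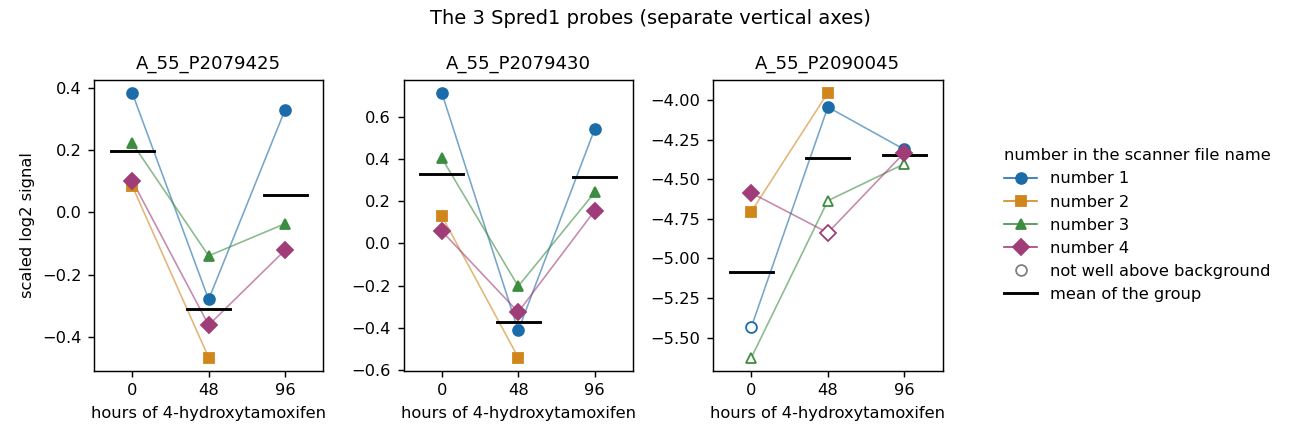
Scaled log2 signal (vertical, a separate axis per probe) of the 3 Spred1 probes on 11 arrays against hours of 4-hydroxytamoxifen, with colours for the number in the scanner file name, open symbols for spots not well above background and bars at group means. Both bright probes are lowest at 48 h, while the dim probe at the right, between -5.63 and -3.96, is not.

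Spred2 was the 1 member called higher than at 0 h. It gave -0.94, -0.77, -1.12 and -1.04 at 0 h, -1.02, -1.36, -0.98 and -1.29 at 48 h, and -0.39, -0.36 and -0.30 at 96 h. Every 96 h array lay above every array of both other groups, and the 3 values lay close together (SD 0.05, n = 3). At 96 h Spred2 was 1.76-fold higher than at 48 h (0.81, SE 0.13, adjusted p = 0.00582) and 1.53-fold higher than at 0 h (0.62, SE 0.13, adjusted p = 0.0206), and it was higher in 3 of 3 pairs each time. At 48 h against 0 h the difference was -0.20 (95% interval -0.46 to 0.06, adjusted p = 0.256). The levels thus stood in the order 96 h, 0 h, 48 h, with no difference beyond the spread between 0 h and 48 h. Both calls set arrays of 1 slide against arrays of the other. Both calls were lost with scaling on the median (0.65 against 48 h, adjusted p = 0.0996, and 0.23 against 0 h, adjusted p = 0.471), and with normexp the differences were 0.53 (adjusted p = 0.00788) and 0.36 (adjusted p = 0.0455). The call against 0 h was also lost in a fit of only the groups compared (adjusted p = 0.0524), with the title-number block (0.0598), and without 0 h replicate 3 or 4 or any 96 h replicate (adjusted p = 0.0509 to 0.0648, with 0.0538 without 96 h replicate 1), while against 48 h it was kept without any 1 array (0.83, adjusted p = 0.0276, without 96 h replicate 1).

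Spry1, which encodes a Sprouty adaptor, was well above background on all 11 arrays. It gave -1.77, -2.38, -1.80 and -1.70 at 0 h, -2.89, -2.54, -2.90 and -2.39 at 48 h, and -1.79, -2.27 and -2.31 at 96 h. The 48 h arrays lay below all others, with 48 h replicate 4 only just under 0 h replicate 2. Spry1 fell to 58.6% of its 0 h level at 48 h (-0.77, SE 0.19, adjusted p = 0.0230), lower in 4 of 4 pairs (-1.12 to -0.16). At 96 h it stood at -0.21 against 0 h (95% interval -0.68 to 0.25, adjusted p = 0.526) and at 0.56 against 48 h (adjusted p = 0.113), without a call. With scaling on the median the difference from 0 h was -0.60 (adjusted p = 0.0841). Every 96 h array was nevertheless above every 48 h array, as for Spred1 and Spred2, a separation found in 14.2% of all genes. The 48 h call was kept under all 13 alternatives, with a size of -0.38 under normexp (adjusted p = 0.00432), and was lost without 0 h replicate 1, 3 or 4 or 48 h replicate 1 or 3 (-0.73 to -0.70, adjusted p = 0.0516 to 0.0633). Without 96 h replicate 1 the differences at 96 h were -0.38 against 0 h and 0.39 against 48 h, and neither was called.

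Spry2, the other Sprouty adaptor measured, was called in no comparison. It gave -2.42, -2.71, -2.81 and -2.77 at 0 h, -2.46, -2.36, -3.00 and -3.32 at 48 h, and -1.91, -2.87 and -2.68 at 96 h, and the groups overlapped throughout. The differences were -0.10 at 48 h against 0 h (95% interval -0.67 to 0.47, adjusted p = 0.800), 0.20 at 96 h against 0 h (-0.42 to 0.81, adjusted p = 0.673) and 0.30 at 96 h against 48 h (-0.31 to 0.91, adjusted p = 0.522). Replicate 1 at 96 h was the highest value of all 11, and without it the 96 h difference was -0.09 against 0 h and 0.01 against 48 h. The sign at 96 h against 0 h turned with scaling on the median as well (-0.19, adjusted p = 0.592).

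Across the 11 arrays the members did not form a single pattern. Pearson's r between Dusp5 and Dusp6 was 0.80, and it was 0.89 after each group's mean was removed, where the numbered samples differ. Dusp6 and Spry2 stood at 0.70 and, with group means removed, at 0.77. Number 1 was the highest sample of both Dusp5 and Dusp6 at each time, and its 96 h array gave the highest Spry2 value of all 11. The r without the number 1 arrays was not computed. Spred1 and Spry1, which shared the 48 h dip, stood at 0.78 and, with group means removed, at 0.33. Spred2 and Spry1 stood at 0.18 and, with group means removed, at -0.80. These are descriptions over 11 arrays that share slides and scaling.

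Among 15016 other genes with a symbol, those whose signals followed each member most closely over the 11 arrays, by Pearson's r, were Vmp1 (0.93), Khnyn (0.88) and Arhgap26 (0.87) for Dusp4, and Plk3 (0.94), Rhof (0.94) and Stk17b (0.93) for Dusp5. Dusp4 cleared background on 0 h arrays alone, and Dusp5 on 2 of the 4 arrays at 48 h and 2 of the 3 at 96 h. The closest genes of both therefore partly follow values near background. For Dusp6 the closest genes were Zxdb (0.95), Nrg2 (0.95) and Mirt2 (0.93). For Spred1 they were Wipf1 (0.95), Lcp2 (0.93) and Eef2k (0.93), and for Spred2 they were Olfr536 (0.97), Setd1a (0.95) and Fgf18 (0.93). For Spry1 they were 5430405H02Rik (0.96), Klf16 (0.95) and Nckap1l (0.94), and for Spry2 they were Fcgr4 (0.93), Cd300c2 (0.91) and Mcemp1 (0.91). No gene was among the closest 3 of more than 1 member, which with 3 taken from 15016 genes cannot show whether members differ.

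Other genes of the pathway were counted from lists drawn up by textbook membership. The share called in 6 such lists ran from 15% to 31.2% at 48 h against 0 h, beside 18.5% of all genes, from 0% to 20% at 96 h against 0 h, beside 9.55%, and from 5% to 25% at 96 h against 48 h, beside 11.1%. The nearest relatives, Spry3, Spry4, Spred3 and Il17rd (which encodes Sef, another feedback inhibitor), were well above background on 0, 0, 2 and 0 of the 11 arrays and were not tested. Of 10 other MAP kinase phosphatases, 1 rose and 1 fell at 48 h against 0 h (median -0.04). Dusp10, whose product acts on the stress kinases JNK and p38, fell by 0.98 (adjusted p = 0.00457), and Dusp9, which encodes an ERK phosphatase, rose by 0.81 (adjusted p = 0.0187), and with the file-number block 1 rose and 2 fell. By 96 h, 1 stood higher than at 0 h (Dusp9, 0.76, adjusted p = 0.0471) and 1 lower (Dusp22, -0.49, adjusted p = 0.0360), with a median of -0.42. Against 48 h, 0 rose at 96 h and 1 fell: Dusp1, an early induced nuclear phosphatase, fell by 0.71 (adjusted p = 0.0282).

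Of 18 tested RAS proteins, exchange factors and adaptors, 2 rose and 2 fell at 48 h against 0 h (median -0.14). Sos1 and Sos2, exchange factors that load RAS with GTP, fell. No 48 h array was well above background for Sos1. It was 2.15-fold lower with its 48 h signals raised to a floor as for Dusp4, which is no lower bound (adjusted p = 0.0113 on the measured signals). Sos2 fell by 0.64 on the log2 scale (adjusted p = 0.0212). Gab3, an adaptor of myeloid cells, rose by 0.96 (adjusted p = 0.0123), and Rasgrp2, an exchange factor mainly for RAP proteins, rose by 0.41 (adjusted p = 0.0359). None of the 18 was called by limma at 96 h against 0 h, with 5 at an unadjusted p under 0.05 and 1 called with the file-number block. Against 48 h, 0 rose at 96 h and 1 fell, Gab3 at -0.80 (adjusted p = 0.0408), a call lost with the file-number block (adjusted p = 0.0621).

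Of 20 RAS GTPase-activating proteins and other brakes, 1 rose and 4 fell at 48 h against 0 h (median -0.14). Dab2ip, which encodes a RAS GTPase-activating protein, fell to 49.9% of its 0 h level (adjusted p = 0.00630), and Rasa3, which encodes another, fell by 0.50 (adjusted p = 0.0135). Cblb, which encodes a ubiquitin ligase that damps receptor signalling, fell by 0.50 (adjusted p = 0.0294), a call lost with the file-number block (adjusted p = 0.0546). Lztr1, whose product helps to degrade RAS proteins, fell by 0.40 (adjusted p = 0.0243), and Pebp1, which encodes the RAF kinase inhibitor protein, rose by 0.48 (adjusted p = 0.0274). Later, at 96 h against 0 h, 1 rose and 2 fell (median 0.07). Errfi1, a feedback inhibitor of EGF receptors, fell by 1.34 (adjusted p = 0.0126), Pebp1 fell by 0.50 (adjusted p = 0.0481), and Dok3, an adaptor that recruits negative regulators, rose by 0.46 (adjusted p = 0.0212). Against 48 h, 3 rose and 2 fell at 96 h (median 0.25). Pebp1 fell by 0.98 (adjusted p = 0.00429) and Errfi1 fell by 0.92 (adjusted p = 0.0319), while Dab2ip rose by 0.79 (adjusted p = 0.0270), Rasa3 by 0.67 (adjusted p = 0.00857) and Rasal3, a RAS GTPase-activating protein of blood cells, by 0.42 (adjusted p = 0.0251).

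Of 20 tested RAF, MEK and ERK kinases and scaffolds, 0 rose and 3 fell at 48 h against 0 h (median -0.09). They were Mapk3, which encodes ERK1, at -0.50 (adjusted p = 0.0282), Shoc2, a scaffold that activates RAF, at -0.47 (adjusted p = 0.0319), and Map3k1, a kinase of the JNK branch, at -0.46 (adjusted p = 0.0170). By 96 h, 1 rose and 2 fell against 0 h (median 0.00057): Mknk2, a kinase that ERK activates, rose by 0.72 (adjusted p = 0.0103), Shoc2 fell by 0.59 (adjusted p = 0.0302) and Lamtor3, a scaffold of MEK, fell by 0.52 (adjusted p = 0.0344). Only Map3k1 rose at 96 h against 48 h, at 0.43 (adjusted p = 0.0393, and 0.0603 with the file-number block), and 0 of the 20 fell.

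Another list held transcripts that ERK or its targets induce elsewhere, together with the genes for serum response factor and its partners (Srf, Elk1 and Elk4). Of its 25 tested genes, 3 rose and 3 fell at 48 h against 0 h (median 0.19). Jun, a subunit of AP-1, rose by 1.15 (adjusted p = 0.0178), while Ets2 fell by 0.74 (adjusted p = 0.0190) and Myc fell by 0.73 (adjusted p = 0.0275). Against 0 h, 0 rose and 3 fell at 96 h (median -0.15): Jun by 1.31 (adjusted p = 0.0259), Ier2, an immediate early gene, by 0.56 (adjusted p = 0.0372) and Srf, which encodes serum response factor, by 0.44 (adjusted p = 0.0451). Setting 96 h against 48 h, 0 rose and 3 fell (median -0.16), and 2 rose and 5 fell with the file-number block. Jun fell by 2.46 (adjusted p = 0.00305), Elk4 by 1.02 (adjusted p = 0.0107) and Elk1 by 0.71 (adjusted p = 0.00893). ELK4 and ELK1 are partners of serum response factor, so the falls of their genes are not a reading of ERK-induced transcripts.

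Upstream, of 16 tested growth factor receptors and their kinases, 2 rose and 3 fell at 48 h against 0 h (median 0.01). Il3ra, the alpha chain of the receptor for the IL-3 in the medium, fell by 1.20 (adjusted p = 0.00243), Insr fell by 0.89 (adjusted p = 0.0262), and Jak2, the kinase of the IL-3 receptor, fell by 0.64 (adjusted p = 0.00673). Epor, the erythropoietin receptor, rose by 0.66 (adjusted p = 0.00864) and Csf3r, the receptor of granulocyte colony-stimulating factor, by 0.66 (adjusted p = 0.00668). In the 96 h samples Il3ra fell by 1.89 (adjusted p = 0.00137) and Epor rose by 0.87 (adjusted p = 0.00975), 1 rising and 1 falling against 0 h (median 0.05), and 1 rising and 3 falling with the file-number block. Against 48 h, 1 rose and 2 fell (median 0.04): Jak2 rose by 0.55 (adjusted p = 0.0204), Flt3 fell by 0.93 (adjusted p = 0.0225) and Il3ra fell by 0.69 (adjusted p = 0.0305). Il3ra levels at 0, 48 and 96 h, 5.41 ± 0.08, 4.21 ± 0.23 and 3.52 ± 0.34 (SD, n = 4, 4 and 3), were lower at each later time. A link between Il3ra and the inhibitor genes was not tested.

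Of the 49 called values of these lists named here (all where 5 or fewer were called, otherwise the 3 largest), 11 were kept under every alternative run and with any 1 array left out. These were Dusp10, Sos1, Dab2ip, Rasa3, Il3ra and Jak2 at 48 h against 0 h, Errfi1 and Il3ra at 96 h against 0 h, and Pebp1, Jun and Elk4 at 96 h against 48 h. The other 38 were lost under at least 1 setting, among them the fall of Mapk3 (adjusted p up to 0.0794 with 1 array left out), of Myc (up to 0.0745) and of Srf (up to 0.138), and the rise of Jun at 48 h (0.0502 without 48 h replicate 4).

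**Figure D4:**
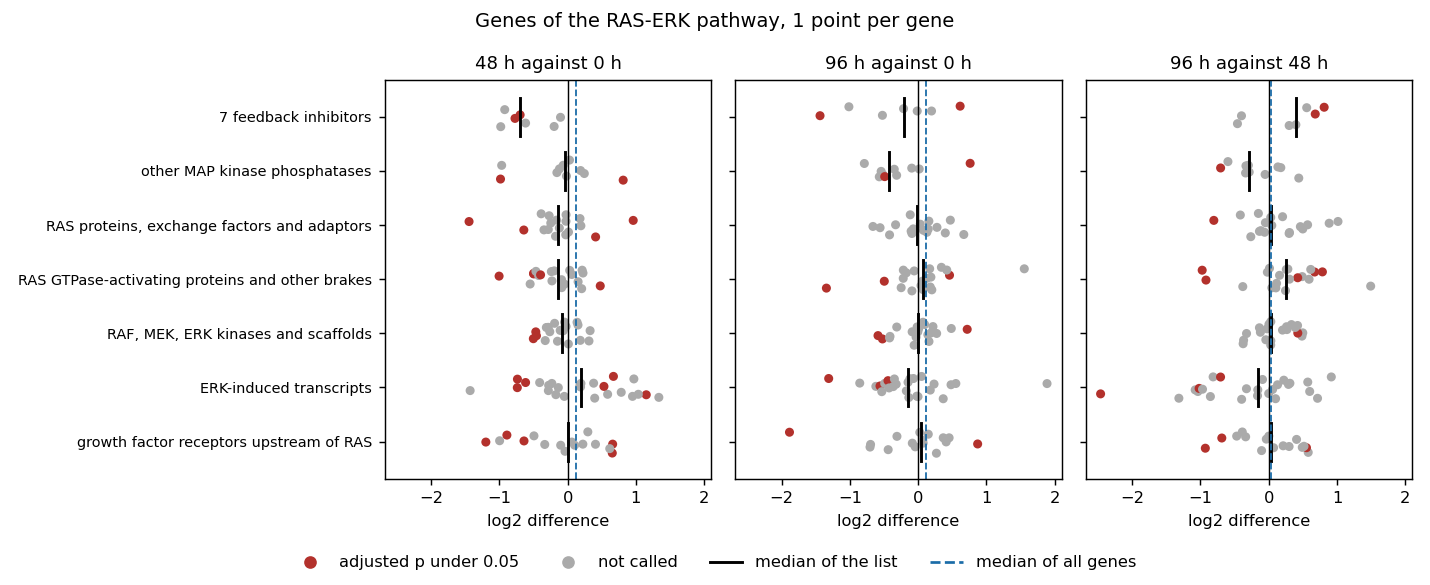
Log2 difference (horizontal) of each tested gene of the RAS-ERK pathway lists in 3 comparisons, 1 point per gene, red for an adjusted p under 0.05, with black bars at list medians and a dashed line at the median of all genes. The median of the 7 feedback inhibitors is -0.70 at 48 h against 0 h, and the medians of the 6 other lists there lie between -0.14 and 0.19.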

How the data were processed

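Total RNA of 11 samples was measured on 1-colour Agilent arrays, 1 deposited scanner file each. Per the file headers, Feature Extraction 11.0.1.1 wrote the files and the array was designed on mm9. Per the file headers, the deposited processed signal is an intensity from which background was taken off, with spatial trends removed and no scaling across arrays; the deposited median intensities of spot and background are raw. Other deposited columns flag, with 0 or 1, spots that clear background, are outliers or saturate. Log2 values fill the authors' deposited series table; limma is named in the submitters' processing notes. Its columns matched normexp (offset 50) plus quantile normalization of the scanner intensities at r = 0.9999838, with column medians of 6.17 to 6.19.

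Of 62976 spots per array, 59305 were not controls. Outlier spots (125 to 194 per array) were left out and none was saturated. Log2 of the processed signal, less the 75th percentile of its array, was averaged over the spots of a probe. Probes that cleared background (well above it by the flag) on 3 or more of 11 arrays were kept (34302), and the brightest stood for a gene. Accessions gave 27656 of 55681 probes a symbol through RefSeq's GRCm38.p6 gene table. limma 3.58.1 (lmFit and eBayes, R 4.3.3, data.table package version 1.17.8) tested all 25109 genes in 1 fit of 3 groups with 8 residual degrees of freedom, 2-sided, and adjusted by Benjamini-Hochberg. Python 3.11.15 (numpy 2.4.6, pandas 2.3.3, matplotlib 3.10.9) drew the figures. The fit was tested on simulated data. The members and lists were chosen with earlier results of these data known. Named genes were all members, and from each list, per comparison, all called genes where 5 or fewer were called and otherwise the 3 with the largest difference (those beyond the 3 largest were added after their values were seen); the 3 genes most like each member were taken by Pearson's r.

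Titles number the replicates, and scanner file names number 96 h replicates 2 and 3 as 3 and 4. Deviations from group means correlated in every same-number pair of 48 h and 0 h (r = 0.137 to 0.282), and the other pairs there ran from -0.255 to 0.167. At 96 h they correlated over 0.1 in 3 of 3 pairs by file-name number (0.115 to 0.356 with 0 h, 0.228 to 0.303 with 48 h) and in 1 of 3 by title number. Pairs of unlike file-name number reached 0.113 with 0 h and 0.0815 with 48 h. The file-name number was taken as the pairing, a choice made from these same data, and it was used as a block in an alternative fit. Alternatives covered scaling, background correction, the deposited table, the dim filter, the probe rule, the samples fitted, blocks, array weights, slide row and each array left out. Protein sequences were not used here.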

Additional observations from a re-analysis of the deposited data

Results flagged for a closer look

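Dusp5 at 0 h and Spry1 at 0 h each had 1 sample far from the other 3. For Dusp5 it was replicate 1, at a scaled log2 signal of -2.43, whose gap to the nearest sample was 0.953 of the group's range. For Spry1 it was replicate 2, at -2.38, with a gap of 0.847 of the range. Both exceeded Dixon's 95% critical value for 4 samples. They were 2 of 18 sets of 4 samples tested, and chance marks about 1 in 20 such sets.

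The response differed between 96 h and 48 h for Spred1 and Spred2 by a test of the difference itself. Spred1 was 0.68 higher at 96 h than at 48 h (log2, limma adjusted p = 0.0317, every 96 h array above every 48 h array). Spred2 was 0.81 higher (limma adjusted p = 0.00582, again with no overlap). Both comparisons set arrays of different slides against each other.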

How the results depend on the processing

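Calls of the 7 members are counted here, with Dusp4, where called, counted as a description only. At 48 h against 0 h the 2 calls became 4 with quantile normalization and 3 with scaling on the median or slide row as a covariate. They became 1 with the mean of a gene's probes, and 1 to 2 with 1 array left out. At 96 h against 0 h the 2 calls became 3 with quantile normalization and with the file-name-number block. They became 1 with normexp, in the authors' deposited table, without the dim filter, with probes well above background on all 11 arrays and with the title-number block. They became 0 in a fit of only the groups compared, and 0 to 2 with 1 array left out. At 96 h against 48 h the 2 calls became 0 with scaling on the median, 1 without the dim filter, with the mean of probes and with the title-number block, and 1 to 2 with 1 array left out. Over all genes, 4649 calls at 48 h against 0 h became 2354 with the median, 2652 without the dim filter and 2444 to 5428 with 1 array left out. The 2398 calls at 96 h against 0 h became 910 without the dim filter, 406 in a fit of only the groups compared, 1487 with the title-number block and 704 to 3297 with 1 array left out. The 2782 calls at 96 h against 48 h became 920 with the median, 1367 without the dim filter, 1580 with the title-number block and 989 to 2965 with 1 array left out.

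With the file-name-number block the paired fit called 5371 genes and 2 members at 48 h against 0 h. It called 3531 genes and 3 members at 96 h against 0 h, Dusp5 being added and Dusp4 counted as a description only. At 96 h against 48 h it called 3050 genes and 2 members. No other member call changed with that block.

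Some signs turned, each of a value that was not called. Spred1 at 96 h against 0 h was 0.014 with the percentile taken over probes detected on all arrays, 0.19 with the mean of probes, 0.0099 with array weights and -0.13 to 0.12 with 1 array left out. Spry2 at 96 h against 0 h was -0.19 with the median, -0.0095 with quantile normalization, -0.0070 with normexp, -0.0048 in the deposited table and -0.094 to 0.39 with 1 array left out, and at 48 h it was -0.24 to 0.075 against 0 h. Dusp6 ran over -1.37 to 0.043 at 96 h against 0 h and -0.45 to 0.96 at 96 h against 48 h. Between 96 h and 48 h, Kdm4a was -0.42 with the mean of probes (0.40 with the brightest probe), and Kdm4b was -0.11 with the median, -0.0046 with normexp and -0.011 to 0.15 with 1 array left out. The cause of these changes was not tested.

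The share of higher among called genes at 48 h against 0 h was 56.8%, and it was 67.4% with the percentile over probes detected on all arrays, 18.0% with the median, 45.6% with quantile normalization, 46.5% with normexp and 45.0% in the deposited table. For 96 h and 0 h it was 64.6%, against 9.07%, 45.7%, 47.8% and 51.5% under the last 4 of these, and for 96 h and 48 h it was 46.4%, against 17.2% with the median. The median moved the middle of all genes to -0.10, -0.28 and -0.13, beside 0.12, 0.11 and 0.03. A slide block could not be run, since the 96 h arrays had a slide of their own. Arrays number 3 or 4 per group, and Dusp4 and the dim Spred1 probe lie near background, which limit the precision.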
